A study of Homo sapiens with 6 samples.

Results

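The genes described are 40 genes that encode regulators and machinery of mitosis, taken by symbol from the count tables as a list whose rule uses function and no measured value. All 40 were found among the 19923 protein-coding genes of the tables, and all 40 were expressed highly enough to be tested. They were grouped by role into 9 mitotic entry regulators, 7 genes of the spindle checkpoint and of the anaphase-promoting complex (APC/C), 7 centromere and kinetochore genes, 3 genes of the chromosomal passenger complex, 7 spindle motors and spindle proteins, 5 midzone and cytokinesis genes, and 2 genes of the mitotic chromosome. Kelly, an established neuroblastoma cell line of human origin with MYCN amplification, labelled wild type, was the source of all libraries. All cells were transfected with lipofectamine RNAiMax and collected after 72 hours. The siControl group received a control siRNA (3 libraries), and the siMETTL3 group an siRNA against METTL3, the catalytic subunit of the enzyme that writes N6-methyladenosine into mRNA (3 libraries). RNA was extracted with TRIzol, and poly(A) RNA was sequenced. The labels name 1 cell line and do not say whether the 3 libraries of a group came from separate cultures, so p-values measure the spread between these libraries, which may be technical.

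Mitosis is driven by cyclin-dependent kinase 1 bound to cyclin B. When this kinase is active, chromosomes condense, the spindle forms and kinetochores attach to microtubules. The spindle checkpoint holds the APC/C inactive until every kinetochore is attached. The APC/C then marks securin and cyclin B for destruction, sister chromatids part, and the spindle midzone directs cytokinesis. Transcripts of these proteins peak together in G2 and M phase, under the DREAM and MuvB complexes, B-MYB and FOXM1, and are abundant in proliferating tumour cells such as those of MYCN-amplified neuroblastoma.

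The libraries held between 15430000 and 21565013 counts. METTL3, the targeted gene, was measured first. Its level was 53.5, 52.8 and 56.2 CPM in the siControl libraries and 33.0, 31.8 and 34.3 CPM in the siMETTL3 libraries, where CPM is the usual depth-scaled count, here on library sizes with TMM scaling, a trimmed mean over genes. The groups did not overlap, and the log2 fold change was -0.71 with a standard error (SE) of 0.0696 (edgeR's quasi-likelihood test, FDR 4.68e-06, where the FDR is the Benjamini-Hochberg adjusted p over 15311 tested genes and the threshold is 0.05). Noradrenergic neuroblastoma markers were abundant in both groups, with DBH at 1074 CPM in siControl, and the sum of the 8 markers was higher in siMETTL3 (7417 to 7843 CPM) than in siControl (4964 to 5484 CPM). The 5 blood and immune markers summed to at most 0.682 CPM in a library. The 7 mesenchymal markers summed to between 111 and 131 CPM in siControl and between 114 and 120.1 CPM in siMETTL3. Sums over 5 epithelial and 3 endothelial markers were low but higher in siMETTL3. They ran from 7.43 to 7.88 against 8.52 to 10.4 CPM for the epithelial and from 4.98 to 5.91 against 6.95 to 9.25 CPM for the endothelial markers. Of all these markers, 0 had no count in all 6 libraries. The part of these marker differences in the mitotic genes was not tested.

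Single mitotic genes moved both ways by small amounts, and their median lay close to that of all genes. Of the 40 genes, 7 rose and 11 fell. The 18 called genes were 45.0% of the 40, beside 37.8% of all tested genes. The 7 that rose were 17.5%, beside 18.6% of all tested genes called higher. Those that fell were 27.5%, beside 19.2% called lower. The shares called and called higher lie near those of all tested genes, and the difference in the share called lower was not tested. Of the 40 genes, 19 had a log2 fold change above 0 and 21 below, and the median was -0.03, beside -0.0021 over all tested genes. This median was 0.01 over the 26 genes whose span overlaps no other gene of the table and 0.02 with a composition offset, which removes smooth trends with the GC content and length of transcripts. The changes ran from -0.45 (TTK) to 0.35 (MKI67), and 0 of the 40 genes changed at least 2-fold. Among all tested genes, 3.35% were called with a change of at least 2-fold. In 22 of the 40 genes the groups did not overlap (9 higher and 13 lower in siMETTL3), beside 49.9% of all tested genes.

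Summed over the 40 genes, the level was 4369, 4489 and 4679 CPM in siControl and 4314, 4331 and 4441 CPM in siMETTL3. The groups overlapped in this sum, and the means of 4512 ± 156 and 4362 ± 69 CPM (SD, n = 3) differed by less than the siControl SD. In RNA from whole cultures, fewer cells in G2 and M phase and less mRNA per cell cannot be told apart. Leaving out 1 library changed the number of calls. It was 9 without siControl replicate 2, 11 without each of the siMETTL3 libraries in turn, and 16 and 17 without siControl replicates 1 and 3. Calls over all tested genes changed as well, from 5786 to 4406 without siControl replicate 2. They were 4210, 4346 and 4524 without siMETTL3 replicates 1, 2 and 3, and 6394 and 6268 without siControl replicates 1 and 3. The genes called in the reported fit and in every alternative fit that tested them were 8: FOXM1, CENPA and MKI67, which rose, and TTK, KIF20A, TOP2A, BUB3 and BUB1B, which fell. FOXM1, CENPA, KIF20A and BUB1B overlap another gene and were not part of the fit on genes without overlaps.

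**Figure D1:**
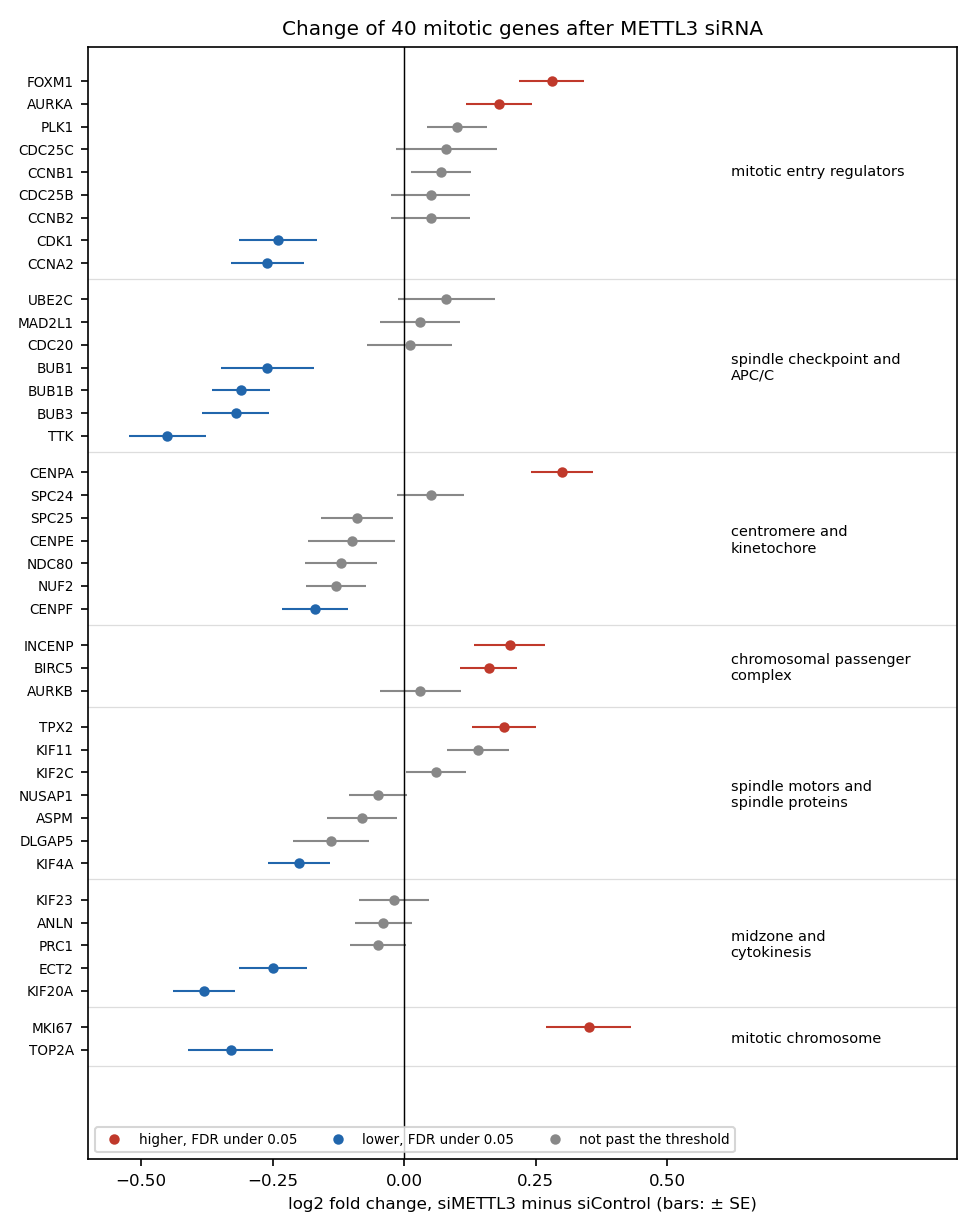
Log2 fold change of each of the 40 mitotic genes (horizontal axis, siMETTL3 minus siControl, bars ± SE), grouped by role. Red points are the 7 genes called higher, blue points the 11 called lower and grey points the 22 not past the threshold, and all points lie between -0.45 and 0.35.

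The 40 genes moved both ways, and their promoters were read for shared elements. The cell cycle genes homology region (CHR), read here as TTTGAA or TTCGAA, is an element bound by MuvB complexes, and CCAAT is the element bound by NF-Y. RefSeq promoter windows (GRCh38.p14, 250 bases before to 50 after the start site) were matched by symbol for 33 of the 40 genes. Both strands were searched. A CHR was found in 24 of the 33 windows (72.7%) and in 13.3% of 14908 windows of all genes of the tables. CCAAT was found in 25 windows (75.8%), beside 36.6% of all. Both elements stood together in 20 windows (60.6%), beside 5.57% of all. Other mitotic lists held the CHR as well, in 19 of 24 windows of other spindle and cytokinesis genes (79.2%), 10 of 19 of condensin, cohesin and separase genes (52.6%) and 7 of 16 of other centromere and kinetochore genes (43.8%). Shares were lower among other APC/C genes (3 of 16, 18.8%), MuvB, MYBL2 and pocket-protein genes (2 of 11, 18.2%) and DNA replication genes (2 of 24, 8.33%), and 0 of 4 windows of genes that restrain CDK1 held it. A letter match describes the sequence and does not show binding.

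The 200 bases before the start site are shown for 7 genes that stand for the range of promoters and of changes. Capitals mark the CHR and CCAAT matches on either strand, so that TTCAAA and ATTGG are matches read on the other strand. CCNB2 (chr15:59104946-59105145, plus strand), which encodes cyclin B2, and PLK1 (chr16:23678689-23678888, plus strand) carry a CHR 29 bases before the start site and did not pass the test. CENPA (chr2:26785856-26786055, plus strand) and MKI67 (chr10:128126424-128126623, minus strand) rose. In MKI67 the second CHR and an ATTGG share 1 base and form 1 run of capitals. TOP2A (chr17:40417897-40418096, minus strand) and BUB1B (chr15:40160869-40161068, plus strand) fell. KIF20A (chr5:138178912-138179111, plus strand) fell as well and has CCAAT matches and no CHR match in its window.
CCNB2: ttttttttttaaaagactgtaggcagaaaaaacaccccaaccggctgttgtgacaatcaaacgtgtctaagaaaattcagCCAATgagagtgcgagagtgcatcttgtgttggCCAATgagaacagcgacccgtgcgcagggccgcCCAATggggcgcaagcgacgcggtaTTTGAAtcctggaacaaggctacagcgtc
PLK1: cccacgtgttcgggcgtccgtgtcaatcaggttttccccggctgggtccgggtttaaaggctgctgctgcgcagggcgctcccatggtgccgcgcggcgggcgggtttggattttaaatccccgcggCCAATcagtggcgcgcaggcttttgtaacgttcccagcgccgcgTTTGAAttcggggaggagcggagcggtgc
CENPA: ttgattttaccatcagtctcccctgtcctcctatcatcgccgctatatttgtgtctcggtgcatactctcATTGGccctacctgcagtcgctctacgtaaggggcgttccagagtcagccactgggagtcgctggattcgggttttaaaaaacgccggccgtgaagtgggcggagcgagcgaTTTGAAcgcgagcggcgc
MKI67: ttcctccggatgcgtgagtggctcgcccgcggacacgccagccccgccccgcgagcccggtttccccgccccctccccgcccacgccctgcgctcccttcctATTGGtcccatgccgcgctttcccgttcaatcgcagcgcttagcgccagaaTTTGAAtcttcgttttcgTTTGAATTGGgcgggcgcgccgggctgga
TOP2A: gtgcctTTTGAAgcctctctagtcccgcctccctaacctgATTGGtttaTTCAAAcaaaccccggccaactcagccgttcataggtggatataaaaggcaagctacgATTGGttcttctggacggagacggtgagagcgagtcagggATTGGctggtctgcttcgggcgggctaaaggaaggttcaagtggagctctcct
BUB1B: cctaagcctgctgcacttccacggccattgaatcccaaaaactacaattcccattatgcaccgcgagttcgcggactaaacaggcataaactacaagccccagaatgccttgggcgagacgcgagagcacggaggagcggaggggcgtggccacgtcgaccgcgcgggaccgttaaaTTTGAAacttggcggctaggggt
KIF20A: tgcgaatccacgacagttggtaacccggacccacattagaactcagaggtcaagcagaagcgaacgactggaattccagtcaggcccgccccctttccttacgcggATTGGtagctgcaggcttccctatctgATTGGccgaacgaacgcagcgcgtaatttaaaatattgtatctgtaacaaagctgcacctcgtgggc

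Genes with a CHR in the window went both ways. Of the 24, 3 were called higher and 7 lower, and the median log2 fold change was -0.07 in a range from -0.33 to 0.35. Over all tested genes, 18.6% were called higher and 19.2% lower. Of the 9 genes without a TTTGAA or TTCGAA match, 0 were called higher and 2 lower, with a median of 0.05. Other forms of the element were not searched, so these genes may hold one. The 7 genes without a matched window are in neither count. They are FOXM1, AURKA, BIRC5 and TPX2, which rose, TTK and BUB3, which fell, and UBE2C, which did not pass the test. The difference between genes with and without a match was not tested. Among 1352 other tested genes with a CHR in the window, 204 were called higher and 274 lower, with a median of -0.01. CHR matches had a median position of -28, and 23 of 33 lay between -60 and 40, on both sides of the start site. CCAAT matches lay further upstream, at a median of -79, counted from 0 at the start site.

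**Figure D2:**
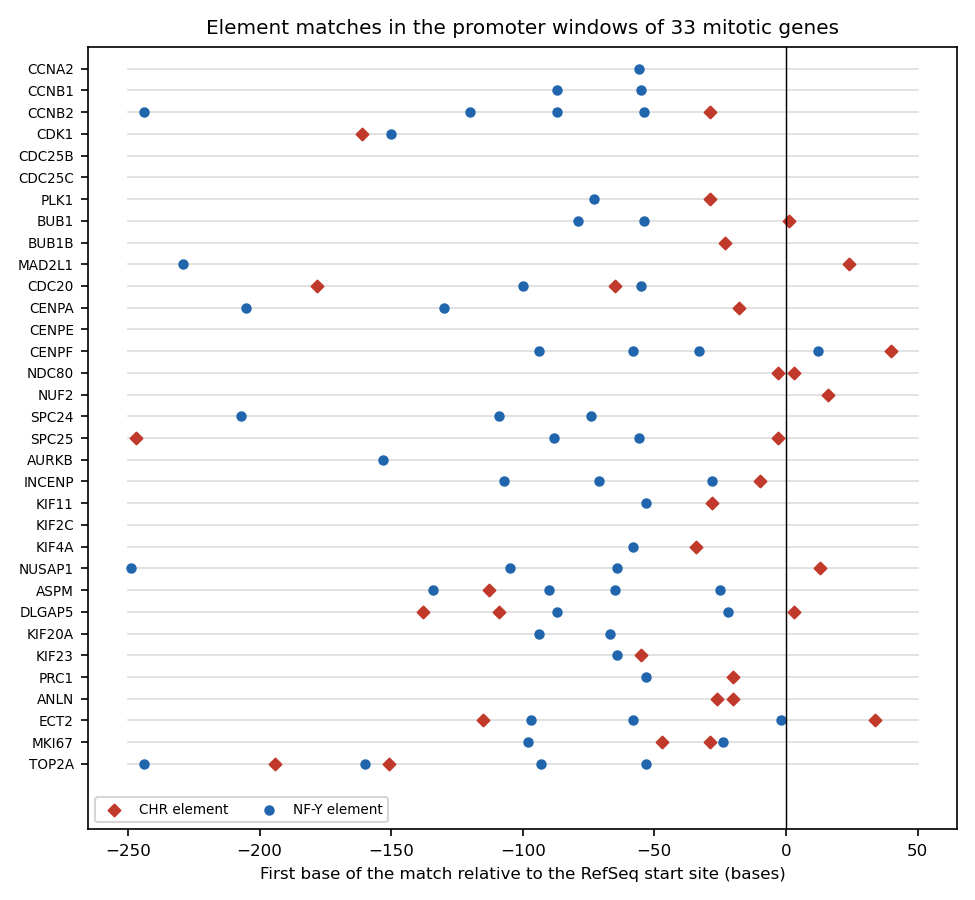
Position of each CHR match (red diamonds) and each CCAAT match (blue circles, labelled NF-Y element) in the RefSeq promoter windows of 33 mitotic genes, in bases from the start site at 0. CHR matches lie on both sides of the start site, with 23 of 33 between -60 and 40 and a median of -28. CCAAT matches have a median of -79.

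The mitotic entry regulators split. FOXM1 and AURKA rose, CDK1 and CCNA2 fell, and the B-type cyclins, PLK1 and the CDC25 phosphatases did not pass the test. FOXM1 (chromosome 12, 2857681 to 2877155, the counted span on GRCh38, as for all genes), the transcription factor of G2 and M phase genes, stood at 117, 105 and 108 CPM in siControl, against 137, 137 and 127 CPM in siMETTL3. The lowest siMETTL3 value exceeded the highest siControl value. The log2 fold change was 0.28 ± 0.0612 (SE; edgeR FDR 0.00245). At most 10.8% of the FOXM1 span is shared with any 1 neighbour, and of its overlapping neighbours ITFG2 also rose (log2 fold change 0.34) and RHNO1 fell (-0.22). Reads in a shared stretch are counted for both genes.

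AURKA, the kinase of centrosomes and spindle poles, was measured at 63.6, 64.2 and 63.3 CPM in siControl, against 76.6, 70.2 and 69.3 CPM in siMETTL3. Its siControl values were the tightest of all 40 genes, with a coefficient of variation of 0.728%. The log2 fold change was 0.18 ± 0.0627 (SE; edgeR FDR 0.0386). This call was lost in 5 of the 6 fits that left out a library, all except that without siControl replicate 3, with an edgeR FDR of 0.198 without siMETTL3 replicate 1. It was also lost with DESeq2 (adjusted p 0.0645), without a filter on low counts (edgeR FDR 0.0531) and on genes without overlaps (edgeR FDR 0.0632), and the lowest adjusted p of all alternatives was 0.00151.

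CDK1 (chromosome 10, 60778331 to 60794852), the kinase that drives entry into mitosis, stood at 95.9, 106 and 117 CPM in siControl, against 92.0, 84.3 and 93.8 CPM in siMETTL3. The lowest siControl library lay just above the highest siMETTL3 library. The log2 fold change of CDK1 was -0.24 ± 0.0746 (SE; edgeR FDR 0.0212). It missed the threshold when siControl replicate 2 (edgeR FDR 0.0699), siMETTL3 replicate 1 (0.0578) or siMETTL3 replicate 2 (0.112) was left out, and narrowly with the intron-length offset (edgeR FDR 0.0526). With the composition offset it was -0.02 (edgeR FDR 0.787, where the range over all alternatives was 9.80e-04 to 0.795). CCNA2, which encodes cyclin A2, the partner of CDK2 and CDK1, fell from 99.5 ± 9.11 to 83.1 ± 1.51 CPM (SD, n = 3; log2 fold change -0.26, edgeR FDR 0.00950). The libraries gave 89.2, 103 and 107 CPM in siControl, against 81.8, 84.7 and 82.8 CPM in siMETTL3. Without siControl replicate 2 the edgeR FDR of CCNA2 was 0.0541, the highest of all alternatives, which started at 2.13e-04. Of the CCNA2 span, 7.72% is shared with EXOSC9, which fell as well (-0.25).

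The cyclin B genes did not pass the test. CCNB1, which encodes cyclin B1, stood at 91.0, 94.7 and 91.9 CPM in siControl, against 94.2, 97.1 and 99.5 CPM in siMETTL3. The groups overlapped, and the log2 fold change was 0.07 ± 0.0564 (SE; edgeR FDR 0.382). With the composition offset it passed the threshold (0.18, edgeR FDR 0.00911, where the alternatives ran from 0.00911 to 0.634). PLK1, the polo-like kinase of mitotic entry and spindle assembly, was measured at 84.6, 85.1 and 82.5 CPM against 86.7, 93.1 and 90.8 CPM (log2 fold change 0.10, edgeR FDR 0.187). The PLK1 groups did not overlap, and with the intron-length offset the gene passed the threshold (0.15, edgeR FDR 0.0485, where the alternatives ran from 0.0485 to 0.962). CCNB2, CDC25B and CDC25C had log2 fold changes of 0.05, 0.05 and 0.08, with SEs from 0.0747 to 0.0957. CDC25B and CDC25C encode the phosphatases that remove the inhibitory phosphates from CDK1.

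Among the genes of the spindle checkpoint and the APC/C, all calls were falls. TTK, BUB1, BUB1B and BUB3 fell, and MAD2L1, CDC20 and UBE2C did not pass the test. Of the 7 genes, 0 rose and 4 fell (57.1% called, beside 37.8% of all tested genes), and the median log2 fold change was -0.26. Over all tested genes, 19.2% were called lower. The difference between these 7 genes and all tested genes was not tested. TTK (chromosome 6, 80003887 to 80042527), also known as MPS1, starts the checkpoint signal at unattached kinetochores. It fell from 70.9, 73.7 and 82.6 CPM in siControl to 55.2, 52.7 and 58.7 CPM in siMETTL3. The groups were well apart, with a log2 fold change of -0.45 ± 0.0724 (SE; edgeR FDR 3.22e-04) and a change of -26.6% in the fitted level. This was the largest fall of the 40 genes in the reported fit. With the composition offset TTK was at -0.26 (edgeR FDR 0.00113, range over all alternatives 3.74e-06 to 0.00454), and KIF20A (-0.37) and BUB3 (-0.29) then fell more.

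BUB1B (chromosome 15, 40161023 to 40221136) encodes BUBR1, a part of the mitotic checkpoint complex that inhibits the APC/C. Its level was 128, 129 and 132 CPM in siControl and 101, 108 and 105 CPM in siMETTL3, with little spread in either group. The log2 fold change was -0.31 ± 0.0554 (SE; edgeR FDR 6.23e-04). At most 6.17% of its span is shared with either PAK6 or BUB1B-PAK6, and both of these fell (-0.26 and -0.25). BUB3 (chromosome 10, 123154402 to 123170467), which recruits BUB1 and BUBR1 to kinetochores, went from 143, 151 and 153 CPM to 119, 111 and 128 CPM. No siMETTL3 library reached the lowest siControl library, and the log2 fold change was -0.32 ± 0.0634 (SE; edgeR FDR 0.00126).

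BUB1, the kinase that marks centromeric chromatin and serves as a checkpoint platform, was the checkpoint gene with the least firm call. Its values were 30.7, 36.7 and 35.6 CPM in siControl and 28.5, 30.3 and 26.8 CPM in siMETTL3, so that siControl replicate 1 lay close to siMETTL3 replicate 2. The log2 fold change was -0.26 ± 0.0890 (SE; edgeR FDR 0.0303). Its edgeR FDR was 0.140 without siControl replicate 2, 0.0909 without siMETTL3 replicate 1 and 0.125 without siMETTL3 replicate 3, and with the composition offset it was 0.0878 (range over all alternatives 0.00397 to 0.140). MAD2L1, the checkpoint protein that binds CDC20, had a log2 fold change of 0.03 ± 0.0755 (SE). CDC20, the APC/C activator that the checkpoint holds, had one of 0.01 with an SE of 0.0815. UBE2C, the ubiquitin-conjugating enzyme of the APC/C, had one of 0.08 with an SE of 0.0920. Their edgeR FDRs were 0.782, 0.908 and 0.558.

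**Figure D3:**
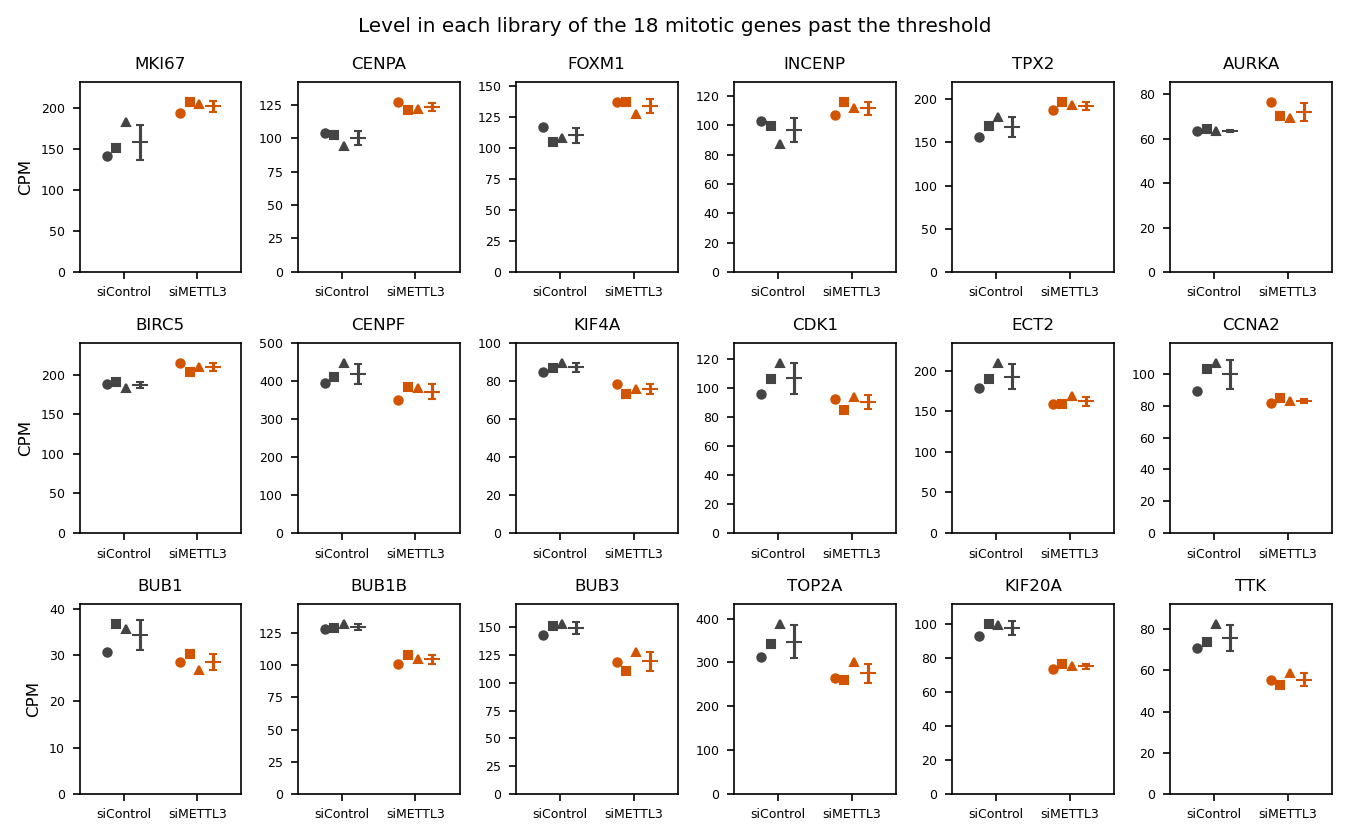
CPM in each library (vertical axes, starting at 0) of the 18 mitotic genes past the threshold, ordered from MKI67 (log2 fold change 0.35) to TTK (-0.45). Circles, squares and triangles are replicates 1, 2 and 3, and the bars beside them are the mean ± SD of 3 libraries. In all 18 genes the groups do not overlap, beside 49.9% of all tested genes. The 18 were chosen by their calls in these same libraries, so this adds no support to the calls.

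At the centromere and kinetochore, CENPA rose, CENPF fell and the other 5 genes did not pass the test. CENPA (chromosome 2, 26764289 to 26801067) encodes the histone H3 variant that marks centromeres. It was measured at 104, 102 and 94.2 CPM in siControl, against 127, 121 and 122 CPM in siMETTL3. The groups were clearly apart, with a log2 fold change of 0.30 ± 0.0590 (SE; edgeR FDR 0.00136). The neighbour SLC35F6 covers 46.1% of the counted CENPA span and was itself higher (0.19, edgeR FDR 0.0476). How many CENPA counts come from the shared stretch was not measured.

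CENPF, a large kinetochore protein that accumulates in G2 phase, had the highest CPM of the 40 genes in both groups. It stood at 395, 411 and 447 CPM in siControl, against 350.0, 383 and 382 CPM in siMETTL3, a log2 fold change of -0.17 ± 0.0631 (SE). Its edgeR FDR of 0.0491 was the closest to the threshold of all 18 calls. It exceeded the threshold in 5 of the 6 fits that left out a library, all except that without siControl replicate 1, and also with RLE scaling (0.0524), total-count scaling (0.0734) and a minimum of 10 counts per library (0.0567). The adjusted p over all alternatives ran from 0.0108 to 0.238, the latter without siMETTL3 replicate 1.

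NDC80, NUF2, SPC24 and SPC25 form the NDC80 complex, the rod that binds microtubules at the outer kinetochore. Their log2 fold changes were -0.12, -0.13, 0.05 and -0.09, with SEs of 0.0679, 0.0571, 0.0638 and 0.0680, and 0 of the 4 passed the threshold (edgeR FDR from 0.101 to 0.540). NUF2 lay lower in all siMETTL3 libraries (129, 119.6 and 130.2 CPM) than in all siControl libraries (133, 139.9 and 139 CPM). With an offset for intron length it passed the threshold (-0.19, edgeR FDR 0.0128, within alternatives of 0.0128 to 0.569). RGS5 covers 61.9% of the NUF2 span and stood at 2895 CPM in siControl and 4184 CPM in siMETTL3, and reads in the shared stretch are counted for both. SPC25 overlaps NOSTRIN and G6PC2, over at most 39.6% of its span with either. CENPE, the kinesin that carries chromosomes to the spindle equator, varied most between siControl libraries among these genes, with 81.7, 73.7 and 95.8 CPM. In siMETTL3 CENPE was at 76.2, 77.5 and 79.6 CPM (log2 fold change -0.10, edgeR FDR 0.354).

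In the chromosomal passenger complex, which corrects faulty attachments and moves to the midzone at anaphase, the kinase gene AURKB did not pass the test and BIRC5 and INCENP rose. CDCA8, which encodes the further subunit borealin and is not among the 40 genes, was at 60.8 ± 8.39 CPM in siControl, against 56.0 ± 1.98 CPM in siMETTL3 (SD, n = 3; log2 fold change -0.12, edgeR FDR 0.298). AURKB, the kinase, was measured at 68.8, 59.9 and 55.7 CPM in siControl, against 61.8, 65.1 and 61.8 CPM in siMETTL3, with a log2 fold change of 0.03 ± 0.0770 (SE; edgeR FDR 0.791). BIRC5, which encodes survivin, rose from 188, 191 and 183 CPM to 215, 204 and 210.4 CPM. Its log2 fold change was 0.16 ± 0.0536 (SE; edgeR FDR 0.0280). INCENP, the scaffold of the complex, rose from 103, 99.6 and 87.5 CPM to 107, 116 and 112 CPM, with a log2 fold change of 0.20 ± 0.0682 (SE; edgeR FDR 0.0298). Both calls were lost in fits that left out a library. BIRC5 was not past the threshold without siControl replicate 2 or without any 1 of the siMETTL3 libraries, with an edgeR FDR of up to 0.136 (lowest of all alternatives 0.00454). INCENP was past it in only 1 of the 6 such fits, that without siControl replicate 1, and its log2 fold change was 0.05 with the composition offset (edgeR FDR 0.448, where the alternatives ran from 0.00577 to 0.475).

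Among the spindle motors and spindle proteins, TPX2 rose and KIF4A fell. TPX2, which activates Aurora A and nucleates spindle microtubules, went from 156, 169.5 and 179 CPM to 188, 197 and 193 CPM (log2 fold change 0.19, SE 0.0605, edgeR FDR 0.0218). AURKA rose as well, and any link between these changes was not tested. The TPX2 call held in 1 of the 6 fits that left out a library, that without siControl replicate 3. The edgeR FDR was up to 0.101 in the other 5 (without siMETTL3 replicate 2), was 0.114 with an offset for intron length, and started at 6.07e-04. KIF4A, the chromatin-bound kinesin that shapes chromosome arms and the midzone, went from 84.7, 86.7 and 89.3 CPM to 78.1, 73.1 and 75.5 CPM (log2 fold change -0.20, SE 0.0587, edgeR FDR 0.0152). It missed the threshold when siControl replicate 2 (edgeR FDR 0.0532), siMETTL3 replicate 2 (0.0680) or siMETTL3 replicate 3 (0.0521) was left out, and the lowest adjusted p of all alternatives was 0.00203.

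The other 5 genes of this role did not pass. KIF11, the motor that pushes spindle poles apart, lay higher in all siMETTL3 libraries (115, 120 and 114 CPM) than in all siControl libraries (101, 105 and 111 CPM), but its edgeR FDR was 0.0726 (log2 fold change 0.14). It passed with total-count scaling (0.16, edgeR FDR 0.0347), without siControl replicate 3 (0.17, edgeR FDR 0.0137) and with the composition offset (0.23, edgeR FDR 0.00158), and the highest adjusted p of all alternatives was 0.330. KIF2C, the microtubule depolymerase of the centromere, had a log2 fold change of 0.06. The pole protein ASPM had one of -0.08, and the microtubule binders NUSAP1 and DLGAP5 had -0.05 and -0.14. The NUSAP1 span lies almost wholly (99.9%) within another gene of the table, AC087721.2, which fell (-0.42, edgeR FDR 3.53e-05) although NUSAP1 did not pass the test.

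The 5 midzone and cytokinesis genes all had log2 fold changes below 0 and 2 of them fell. Over all tested genes, 7695 of 15311 lay below 0 and 19.2% were called lower, and the difference was not tested. With the composition offset KIF23 and ANLN lay above 0. KIF20A (chromosome 5, 138178719 to 138187723), the kinesin MKLP2 that brings the passenger complex to the midzone, went from 92.6, 100 and 99.4 CPM in siControl to 73.6, 76.4 and 75.0 CPM in siMETTL3. The siMETTL3 values were tight and far below the siControl values, with a log2 fold change of -0.38 ± 0.0591 (SE; edgeR FDR 2.44e-04). Its neighbours BRD8 (-0.39) and CDC23 (-0.01) share at most 2.98% of its span each. ECT2, the exchange factor that activates RhoA at the division plane, stood at 179, 189.6 and 209.9 CPM in siControl, against 159, 159 and 169 CPM in siMETTL3 (log2 fold change -0.25, SE 0.0645, edgeR FDR 0.00775). The composition offset brought ECT2 to -0.10 (edgeR FDR 0.109, where all alternatives ran from 6.15e-04 to 0.118).

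The remaining 3 cytokinesis genes did not pass the test. KIF23, the kinesin of the centralspindlin complex, PRC1, the bundler of midzone microtubules, and ANLN, the anillin of the contractile ring, had log2 fold changes of -0.02, -0.05 and -0.04 with SEs of 0.0669, 0.0536 and 0.0541. PRC1 was at 133 ± 3.65 CPM in siControl, against 128 ± 1.07 CPM in siMETTL3 (SD, n = 3), and 99.5% of its span is shared with AC068831.8. Over all 22 genes not past the threshold, log2 fold changes ran from -0.14 to 0.14, and 2 of these had an unadjusted p under 0.05 in edgeR. Missing the threshold does not show that a gene was unchanged.

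MKI67 and TOP2A, both abundant on mitotic chromosomes and both used as proliferation markers, moved in opposite directions. MKI67 (chromosome 10, 128096659 to 128126423) encodes the Ki-67 protein that coats chromosomes. It rose from 141, 151 and 182 CPM to 194, 207 and 204 CPM, a log2 fold change of 0.35 ± 0.0810 (SE; edgeR FDR 0.00444). This was the largest rise of the 40 genes in the reported fit, whereas with the composition offset CENPA (0.36) rose more than MKI67 (0.29). TOP2A (chromosome 17, 40388525 to 40417896), the topoisomerase that untangles sister chromatids, fell from 312, 343 and 388 CPM to 264, 261 and 300.4 CPM. Its log2 fold change was -0.33 ± 0.0805 (SE; edgeR FDR 0.00577). In both genes siControl replicate 3 was the highest siControl library. For MKI67 this put it nearest to the siMETTL3 libraries, and for TOP2A farthest from them. Leaving out a library moved MKI67 between 0.28 and 0.46 and TOP2A between -0.41 and -0.25, and both kept their calls.

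The median coefficient of variation of the 40 genes was 5.88% in siControl and 3.81% in siMETTL3, with the widest in MKI67 (13.4%) and MAD2L1 (9.34%). Within siControl, replicate 3 held the highest value for 20 of the 40 genes and replicate 1 the lowest for 23. The part of this spread in the calls was not tested beyond leaving out each library.

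Per kilobase of the canonical transcript (GENCODE release 44), BIRC5 and CENPA stood highest among the 40 genes in siControl, at 72.8 and 72.2 CPM per kilobase, followed by NUF2 (70.0), TOP2A (61.0) and CDK1 (56.4). BUB1 (9.13), CENPE (9.80) and MKI67 (12.4) stood lowest. BIRC5 and CENPA differ by less than their spread. The place of NUF2 includes any reads of RGS5, and that of CENPA any reads of SLC35F6, which covers 46.1% of its span. Counts include introns, whereas the length is that of the spliced transcript, so these values also carry any intron reads. In siMETTL3 the level of CENPA was 88.8 and that of BIRC5 81.5 CPM per kilobase, TOP2A was at 48.4 and ranked 7, and FOXM1 moved from rank 23 to rank 15.

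Direction was related to base composition. Transcript GC content ran from 35.1% to 59.1% among the 40 genes. Of the 13 genes under 40% GC, 0 rose and 4 fell (CDK1, TTK, ECT2 and TOP2A). Of the 10 genes at 50% or more, 3 rose (FOXM1, BIRC5 and INCENP) and 0 fell. The 17 genes between gave 4 rises and 7 falls. Over all tested genes of any GC content, 18.6% were called higher and 19.2% lower. Shares of all genes called within each GC class are not given here, and the differences between classes were not tested. Across the 40 genes, Spearman's rho of GC content with the log2 fold change was 0.59 and Pearson's r 0.55, and across 14591 tested genes with a transcript both were 0.18. These correlations are over genes that share the same 6 libraries and are given as a description. Over all tested genes, the median log2 fold change rose from -0.086 at 40% GC or less to 0.060 between 55% and 60%.

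The composition offset gave 8 mitotic genes called higher and 8 called lower in place of 7 and 11. In this fit 3249 of all 15311 tested genes were called higher and 3162 lower, in place of 2849 and 2937. Whether the mitotic genes differed from all tested genes in these shares was not tested. CDK1, BUB1, ECT2 and INCENP lost their calls, CCNB1 and KIF11 gained one, and 12 mitotic genes changed sign, of which 0 had been called. Of the calls that were kept, TTK moved from -0.45 to -0.26, CCNA2 from -0.26 to -0.15 and FOXM1 from 0.28 to 0.17. KIF20A (-0.37), BUB3 (-0.29), BUB1B (-0.25) and TOP2A (-0.25) also fell with the offset, and CENPA (0.36) and MKI67 (0.29) rose.

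**Figure D4:**
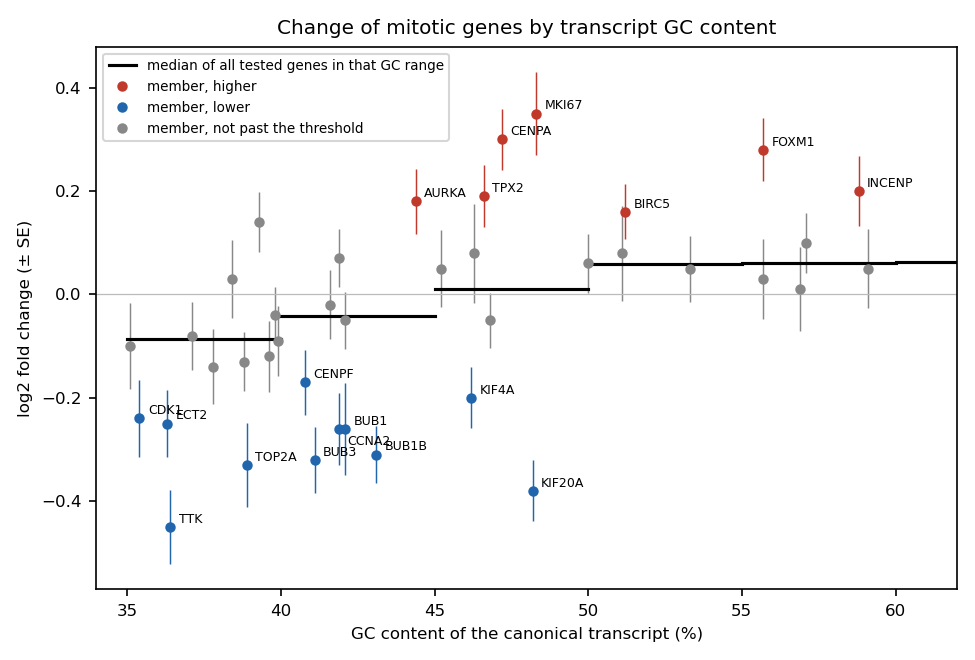
Log2 fold change (vertical axis, ± SE) of the 40 mitotic genes against the GC content of the canonical transcript in percent. Black segments are the median of all tested genes in each GC range, rising from -0.086 to 0.060 across the range of the 40 genes. Fallen genes (blue) lie below 50% and none of the risen genes (red) lies below 40%.

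Other lists of mitotic and cell cycle genes, 133 genes in all, were read from the same fit, in which 18.6% of all tested genes were called higher and 19.2% lower. Of 22 other centromere and kinetochore genes, 1 rose and 10 fell (50% called, beside 37.8% of all tested genes), and the median log2 fold change was -0.18. MIS12, a subunit of the complex that links inner and outer kinetochore, fell from 21.6 to 12.9 CPM (-0.75, edgeR FDR 4.16e-05), and CENPU and ZWINT fell by 0.41 each on the log2 scale. Of 21 condensin, cohesin and separase genes, 2 rose and 7 fell (42.9% called, median -0.13), with falls of the condensin subunits NCAPH2 (-0.47), NCAPG (-0.31) and SMC2 (-0.36). Of 16 other APC/C genes, 1 rose and 6 fell (43.8% called, median -0.02). Among them ANAPC11 and ANAPC13, which are small subunits, and UBE2S, which extends ubiquitin chains, fell from 152 to 116, 53.1 to 40.4 and 94.0 to 71.7 CPM.

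Genes of the spindle and cytokinesis outside the 40 moved both ways. Of 26 such genes, 5 rose and 4 fell (34.6% called), with a median of -0.0021. SPAG5, which encodes the spindle protein astrin, fell (-0.34), and CEP55 and CIT, which act at the midbody, rose (0.42 and 0.31). Of 12 MuvB, MYBL2 and pocket-protein genes, 2 rose and 1 fell (25% called). MYBL2, which encodes B-MYB, rose from 209 to 246 CPM (0.24, edgeR FDR 0.0135), and of the E2F partners TFDP1 rose (0.24) and TFDP2 fell (-0.18). Of these 7 lists, DNA replication was the most one-sided, with 0 of 28 genes higher, 21 lower (75.0% called) and a median of -0.29. It was led by PCNA (-0.64), MCM4 (-0.55) and MCM7 (-0.50). Of 7 tested genes that restrain CDK1, CDKN1A fell from 62.1 to 30.7 CPM (-1.02, edgeR FDR 1.66e-07) and WEE1 from 45.1 to 36.6 CPM (-0.30). CDKN1C rose from 1.15 to 4.02 CPM (1.82). The difference between these lists and the 40 genes was not tested.

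**Figure D5:**
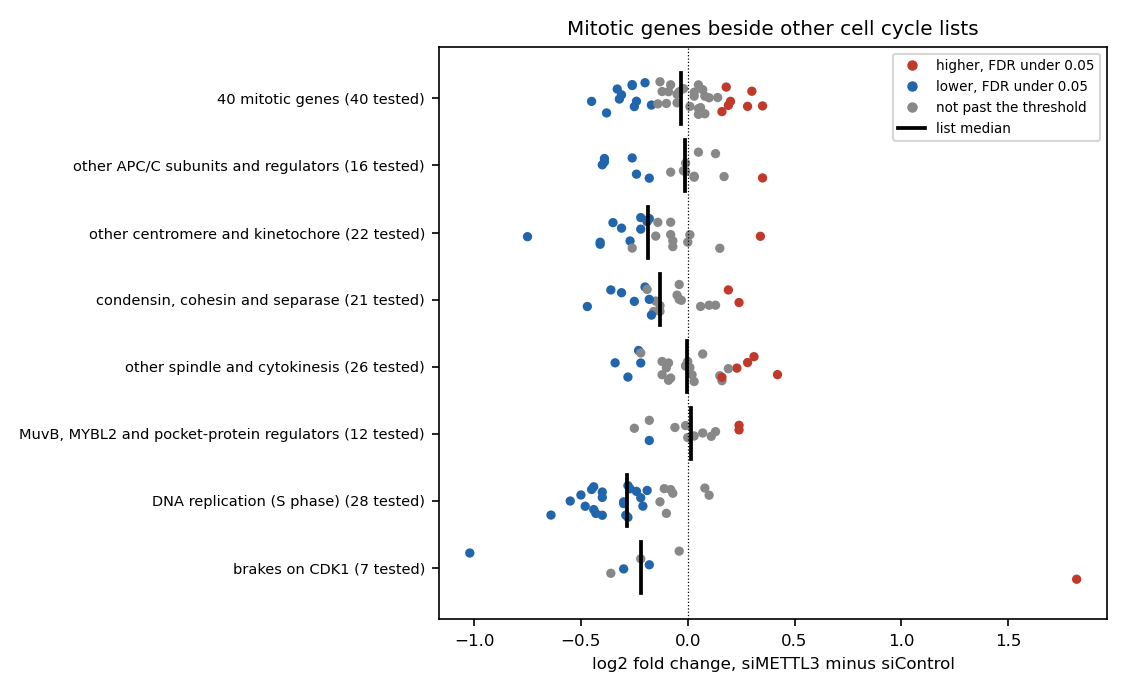
Log2 fold change (horizontal axis) of single genes in the 40 mitotic genes and in 7 other cell cycle lists. Red and blue points are past the threshold, grey points are not, and the black bars are the list medians, at -0.03 for the mitotic genes and at -0.29 for DNA replication.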

How the data were processed

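Each library has a table of raw read counts per gene, deposited by the authors and made by featureCounts (version 1.5.3) on protein-coding genes of GENCODE release 33, per the file headers. The submitters' processing notes name Trimmomatic 0.36, HISAT2 2.1.0 and GRCh38. Per the file headers, the whole gene span was counted, introns included, without strand, and reads in a stretch shared by genes went to each gene; 14 of the 40 genes overlap another gene of the table. Paths in the file headers carry the words input and picard, and what was done under these names is not given in the sources used here.

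Total counts ran from 15430000 to 21565013, and counts of the 40 genes from 383 to 8528 per library. The SE and SD given here reflect the spread between the libraries of a group, which may be technical. Libraries of a group differed by more than sampling noise (chi-square per degree of freedom 3.11 to 16.9). Groups came from the sample titles. Genes kept by filterByExpr (15311) were scaled by TMM and compared with edgeR 4.0.16 in R 4.3.3 (robust quasi-likelihood F-test, 6 libraries, no covariate). The SE was derived from F, as the size of the log2 fold change over its root. Canonical transcripts (GENCODE release 44, whose gene spans overlapped all 18999 spans compared) were found for 95.3% of tested genes.

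The 40 genes and all lists were chosen with earlier results of these data known. All 40 are reported; of other lists, up to 3 genes with the smallest FDR are named, as are METTL3, CDKN1A and neighbours that share a span. Alternatives were RLE and total-count scaling, no filter, a minimum of 10 counts per library, limma-voom (limma 3.58.1), DESeq2 1.42.0, a replicate block, each library left out, genes without overlaps, and offsets smooth in GC content and transcript length (composition offset) or in intron length.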

Additional observations from a re-analysis of the deposited data

How the results depend on the processing

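METTL3 was lower and past the threshold in every alternative that tested it, which the fit on genes without overlaps did not. Leaving out 1 library gave 9 to 17 of the 40 genes called, 3 to 7 higher and 6 to 11 lower, with the spread estimated over the 5 libraries left. Over all tested genes, these fits called 4210 to 6394 genes, beside 5786 with all libraries. On genes without overlaps, 3749 of 9517 were called in place of 5786 of 15311 (1852 higher, 1897 lower), with 11 of 26 mitotic genes (4 higher, 7 lower) and a mitotic median of 0.01; fewer genes were tested there. The median was 0.02 with the composition offset and 0.03 with that offset and a replicate block together, an alternative added after seeing the data. With total-count scaling the median of all genes was 0.0210 and 53.9% of all calls were higher, beside 49.2%.

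Same-numbered libraries correlated by 0.040, 0.049 and 0.067 in their deviations from the group means, so the numbers were not taken as pairs. With the replicate block 6166 genes were called, and 18 of the mitotic genes (7 higher, 11 lower).

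Of 666 values of single mitotic genes under alternatives, 50 lost the call, 8 gained it and 39 changed sign, in 16 genes that were not called; the cause was not tested. With the composition offset, alone and with the replicate block, log2 fold changes were -0.08 and -0.08 for CDC25B, -0.07 and -0.07 for CDC20, 0.02 and 0.02 for CENPE, 0.02 and 0.03 for NDC80, 0.04 and 0.04 for NUF2, 0.08 and 0.09 for SPC25, -0.0053 and -0.0011 for AURKB, 0.06 and 0.07 for NUSAP1, 0.01 and 0.01 for ASPM, 0.03 and 0.03 for DLGAP5, 0.07 and 0.07 for KIF23, and 0.05 and 0.05 for ANLN. CDC20 was at -0.0030 on genes without overlaps and KIF23 at 0.0071 with total-count scaling. Leaving out 1 library gave -0.0085 to 0.10 for CCNB2, -0.0085 to 0.11 for CDC25B, -0.02 to 0.16 for CDC25C, -0.04 to 0.09 for MAD2L1, -0.03 to 0.07 for CDC20, -0.02 to 0.17 for UBE2C, -0.19 to 0.0000 for CENPE, -0.03 to 0.12 for AURKB and -0.06 to 0.02 for KIF23. SEs of the 40 genes ran from 0.0536 to 0.0957, which limits the changes that these depths and 3 libraries a group can show.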
